A study of Mus musculus with 36 samples.

Results

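The 10 genes described here encode proteins of neutrophil granules or of the neutrophil cytosol: Mpo, Elane, Prtn3, Ctsg, Camp, Ngp, Ltf, Lcn2, S100a8 and S100a9. They were taken by symbol from single-colour Agilent arrays, where Elane carries its older name Ela2, and they lay on 11 of 41174 probes (Ltf on 2, every other gene on 1). RNA of mouse myeloid cells was hybridized to 36 arrays, 3 for each of 12 groups. Whether replicate arrays stand for different animals is not in the labels, so p-values measure the spread between these arrays only. All groups but one began from bone marrow monocytes sorted by FACS as CD11b+ Ly6C+ Ly6G-, a gate that excludes cells with the neutrophil marker Ly6G. The group called Monocytes was that population without culture.

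The other groups were cultured for a 6-day period, and those given a stimulus received it for 24 h. For M0 and Mreg no IFN-γ the stimulation time is recorded as 0 h. Whether their total time in culture matched that of the stimulated groups was not settled here. Macrophages grown with 10% FCS and 20 ng/ml of the growth factor M-CSF had no stimulus (M0), or received 25 ng/ml IFN-γ (IFN-γ macrophages), the same IFN-γ with LPS (M1; the labels give 100 µg/ml), 20 ng/ml IL-4 (M2a) or dexamethasone (M2c). M2b macrophages grew on dishes coated with human immunoglobulin at 1 mg/ml and received 25 ng/ml IFN-γ. Monocyte-derived dendritic cells (Mo-DC) grew in 10% FCS, 20 ng/ml GM-CSF and 20 ng/ml IL-4 and also received 25 ng/ml IFN-γ. Regulatory macrophages (Mreg) grew in 5 ng/ml M-CSF with 10% FCS and 10% human AB serum and received 25 ng/ml IFN-γ; their variants lacked IFN-γ (Mreg no IFN-γ) or had LPS added (Mreg + LPS). Unsorted Mreg had the Mreg medium and IFN-γ, but began from adherent mononuclear cells of bone marrow, spleen and blood. The Mreg cultures therefore differed from the M-CSF cultures in both M-CSF dose and serum.

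Neutrophils make their granules in waves as they mature in the bone marrow. Primary (azurophil) granules hold myeloperoxidase and the serine proteases and are filled at the promyelocyte stage, secondary (specific) granules hold lactoferrin, cathelicidin and lipocalin 2 and are filled later, and S100A8 with S100A9 forms calprotectin, the main soluble protein of the cytosol. Some of these genes are also used outside the lineage: granulocyte-monocyte progenitors and young monocytes transcribe the primary granule genes, monocytes make calprotectin, and macrophages and epithelia make lipocalin 2 in inflammation. In bulk RNA, fewer cells with a transcript and less transcript per cell cannot be told apart.

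All values are log2 of the processed spot intensity minus the 75th percentile of the same array, here called the log2 level, and each gene's level is compared only with its own level in other groups, since intensities of different probes are not comparable. The lowest level that the scanner software called well above background ran from −6.07 to −4.87 over the arrays, so levels near or below that range have no dependable order. Between 50.4 and 57.7% of spots were well above background on an array, and no member spot was saturated. Differences were tested with limma over all 36 arrays and 17645 genes, and called at a Benjamini-Hochberg adjusted p below 0.05. Apart from monocytes against all other arrays, the share of all genes whose arrays did not overlap was not counted. Elsewhere non-overlap is therefore description only. The share of all genes at an unadjusted p below 0.05 was not counted either, so member counts at that threshold are also description only. All 10 members passed the filter of 3 arrays above background; Elane passed it only through the monocyte arrays, so it had to be high there. The 11 measured markers of Ly6C-high monocytes were above background on all 3 monocyte arrays, and all 12 macrophage markers on the M0 arrays. Presence alone does not tell these groups apart, since 11 of the 12 macrophage markers were above background on all 3 monocyte arrays too. Cd177 and Hp stand both among the Ly6C-high markers and among the other granule proteins listed below. Ly6g itself was not analysed here.

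The probes that gave the values the results turn on are printed as deposited, with their positions in build mm8, because each level is the brightness of this one stretch of the transcript. The capital letters used further on mark promoter motifs; the probes carry none.
Camp (chr9:109704884-109704943): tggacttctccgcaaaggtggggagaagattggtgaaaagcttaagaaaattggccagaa
Ngp (chr9:110266929-110267477): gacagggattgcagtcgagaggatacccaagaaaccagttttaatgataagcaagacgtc
Ltf, brighter probe (chr9:110885185-110885244): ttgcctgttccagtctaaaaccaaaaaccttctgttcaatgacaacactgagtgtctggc
Ltf, other probe (chr9:110880576-110883626): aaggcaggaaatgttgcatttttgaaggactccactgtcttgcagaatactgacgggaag
Lcn2 (chr2:32207526-32207770): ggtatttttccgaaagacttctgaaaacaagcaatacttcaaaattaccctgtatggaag
Elane (chr10:79291147-79291206): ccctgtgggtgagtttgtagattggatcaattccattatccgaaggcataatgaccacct
S100a8 (chr3:90755783-90755842): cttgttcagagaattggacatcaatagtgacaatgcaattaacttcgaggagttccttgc
Each of these is a 60-base probe. The deposited positions of the Ngp, Lcn2 and second Ltf probes span more than 60 bases of genome, so their alignments are interrupted, whereas those of Camp, Elane, S100a8 and the brighter Ltf probe lie in 1 unbroken stretch. No pair of the 11 member probes shared a run of more than 8 bases. The remaining probes lay at chr11:87619795-87620570 (Mpo), chr10:79284253-79285069 (Prtn3), chr14:55054029-55054088 (Ctsg) and chr3:90778590-90778649 (S100a9).

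The members lay partly side by side. In RefSeq's annotation of GRCm38.p6 no gene separated Prtn3 from Elane on chromosome 10, or S100a8 from S100a9 on chromosome 3. Camp, Ngp and Ltf shared chromosome 9, with 18 genes between Camp and Ngp and 25 between Ngp and Ltf. Because all members were high in the same group, the 250 bases before each annotated start were read from RefSeq's promoters (GRCm38.p6; all 10 matched) and searched on both strands for the core of the C/EBP site, TTNNGCAA, and of the PU.1 site, GAGGAA. C/EBP factors and PU.1 are known regulators of granule genes. The matches are in capitals below, 5′ to 3′ on the gene's strand.
Mpo (chr11:87793534-87793783, plus strand): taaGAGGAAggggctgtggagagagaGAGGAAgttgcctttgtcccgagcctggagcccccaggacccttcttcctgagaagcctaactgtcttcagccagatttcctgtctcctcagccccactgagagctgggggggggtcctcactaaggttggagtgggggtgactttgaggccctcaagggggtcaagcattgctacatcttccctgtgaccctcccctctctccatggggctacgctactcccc
Elane (chr10:79886062-79886311, plus strand): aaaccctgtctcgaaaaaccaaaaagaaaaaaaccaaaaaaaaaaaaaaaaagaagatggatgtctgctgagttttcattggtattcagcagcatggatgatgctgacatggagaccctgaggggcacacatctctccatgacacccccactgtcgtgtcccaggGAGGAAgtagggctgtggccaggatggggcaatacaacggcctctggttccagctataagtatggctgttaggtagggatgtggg
Prtn3 (chr10:79879417-79879666, plus strand): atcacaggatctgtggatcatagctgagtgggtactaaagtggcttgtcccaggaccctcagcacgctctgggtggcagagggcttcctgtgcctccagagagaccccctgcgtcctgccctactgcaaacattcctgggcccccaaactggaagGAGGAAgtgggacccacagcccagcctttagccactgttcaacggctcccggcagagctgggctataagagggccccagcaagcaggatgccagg
Ngp (chr9:110419558-110419807, plus strand): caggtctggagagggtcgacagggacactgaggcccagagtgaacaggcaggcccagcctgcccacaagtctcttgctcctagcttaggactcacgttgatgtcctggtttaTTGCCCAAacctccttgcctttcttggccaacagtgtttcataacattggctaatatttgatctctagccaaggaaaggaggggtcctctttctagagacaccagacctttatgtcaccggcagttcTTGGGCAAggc
Ltf (chr9:111019042-111019291, plus strand): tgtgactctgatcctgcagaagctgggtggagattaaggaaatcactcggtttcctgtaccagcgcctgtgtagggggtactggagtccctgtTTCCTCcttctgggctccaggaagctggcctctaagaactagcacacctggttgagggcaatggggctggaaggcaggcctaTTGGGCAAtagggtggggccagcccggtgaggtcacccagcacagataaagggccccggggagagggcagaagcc
Lcn2 (chr2:32387740-32387989, minus strand): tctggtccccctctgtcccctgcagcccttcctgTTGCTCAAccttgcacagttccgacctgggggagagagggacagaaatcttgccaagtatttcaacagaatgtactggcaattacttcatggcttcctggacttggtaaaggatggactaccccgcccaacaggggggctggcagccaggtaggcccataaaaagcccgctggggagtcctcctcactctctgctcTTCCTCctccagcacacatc
S100a8 (chr3:90668821-90669070, plus strand): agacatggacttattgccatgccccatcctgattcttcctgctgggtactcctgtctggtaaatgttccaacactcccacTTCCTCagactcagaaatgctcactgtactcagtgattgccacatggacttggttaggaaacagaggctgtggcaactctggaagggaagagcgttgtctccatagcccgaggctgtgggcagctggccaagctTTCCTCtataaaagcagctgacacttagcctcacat
S100a9 (chr3:90695722-90695971, minus strand): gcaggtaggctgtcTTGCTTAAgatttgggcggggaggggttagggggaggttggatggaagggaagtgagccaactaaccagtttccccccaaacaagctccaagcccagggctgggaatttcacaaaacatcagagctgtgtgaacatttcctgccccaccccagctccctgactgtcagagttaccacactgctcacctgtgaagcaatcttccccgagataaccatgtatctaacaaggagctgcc
GAGGAA was present before 7 of the 10 starts, against 23.3% of 32851 promoters of the same length. It lay before all 4 primary granule genes, at −247 and −224 in Mpo, −85 in Elane, −95 in Prtn3 and −216 in Ctsg, and, on the opposite strand (TTCCTC), before Ltf, Lcn2 and S100a8. The longer GAGGAAGT, which contains it and was searched after the sequences had been seen, was present in Mpo, Elane, Prtn3 and S100a8, and in 2.44% of all promoters. TTNNGCAA was found before Ngp (at −138 and −11), Ltf (−75), Lcn2 (−216) and S100a9 (−236), against 9.56% of all promoters, and before none of the primary granule genes. Camp had neither. TATAAA lay at −30 in S100a8 and, on the other strand, at −237 in Ctsg, against 12.4% of all promoters. No member held the NF-κB consensus in this window, which 3.90% of all promoters did. In these windows no motif overlapped another apart from GAGGAAGT with GAGGAA. These are matches of letters in a short window, with no measurement of binding.

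**Figure D1:**
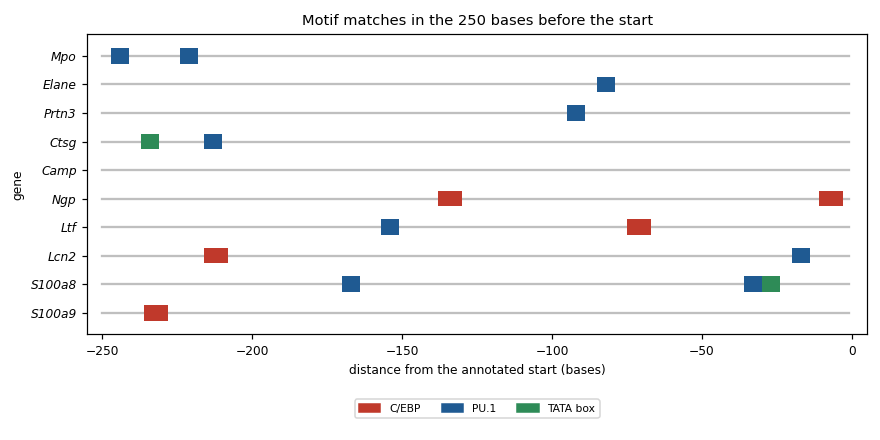
Motif matches in the 250 bases before the annotated start of each member, with distance from the start on the x axis and 1 line per gene. GAGGAA (PU.1, blue) lies before all 4 primary granule genes, and TTNNGCAA (C/EBP, red) before Ngp, Ltf, Lcn2 and S100a9.

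Uncultured monocytes held the highest level of every member. The lowest monocyte array lay above the highest of the other 33 arrays for 10 of 10 members, as it did for 14.1% of the 17437 genes with a value on all arrays. Ranked by the width of that gap, Camp came 1st, Ngp 2nd and Ltf 4th among those 17437 genes, and the other members apart from Elane between 24th (Mpo) and 103rd (Lcn2). Elane gets no rank here, since none of its other 33 arrays was above background, and the filter fixed its place among the 10 of 10. The gap was widest for Camp, whose lowest monocyte array (8.58) stood 12.6 log2 units above its highest other array (M1 replicate 1, −4.04). It was narrowest for Lcn2, at 4.02 log2 units above M1 replicate 3.

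**Figure D2:**
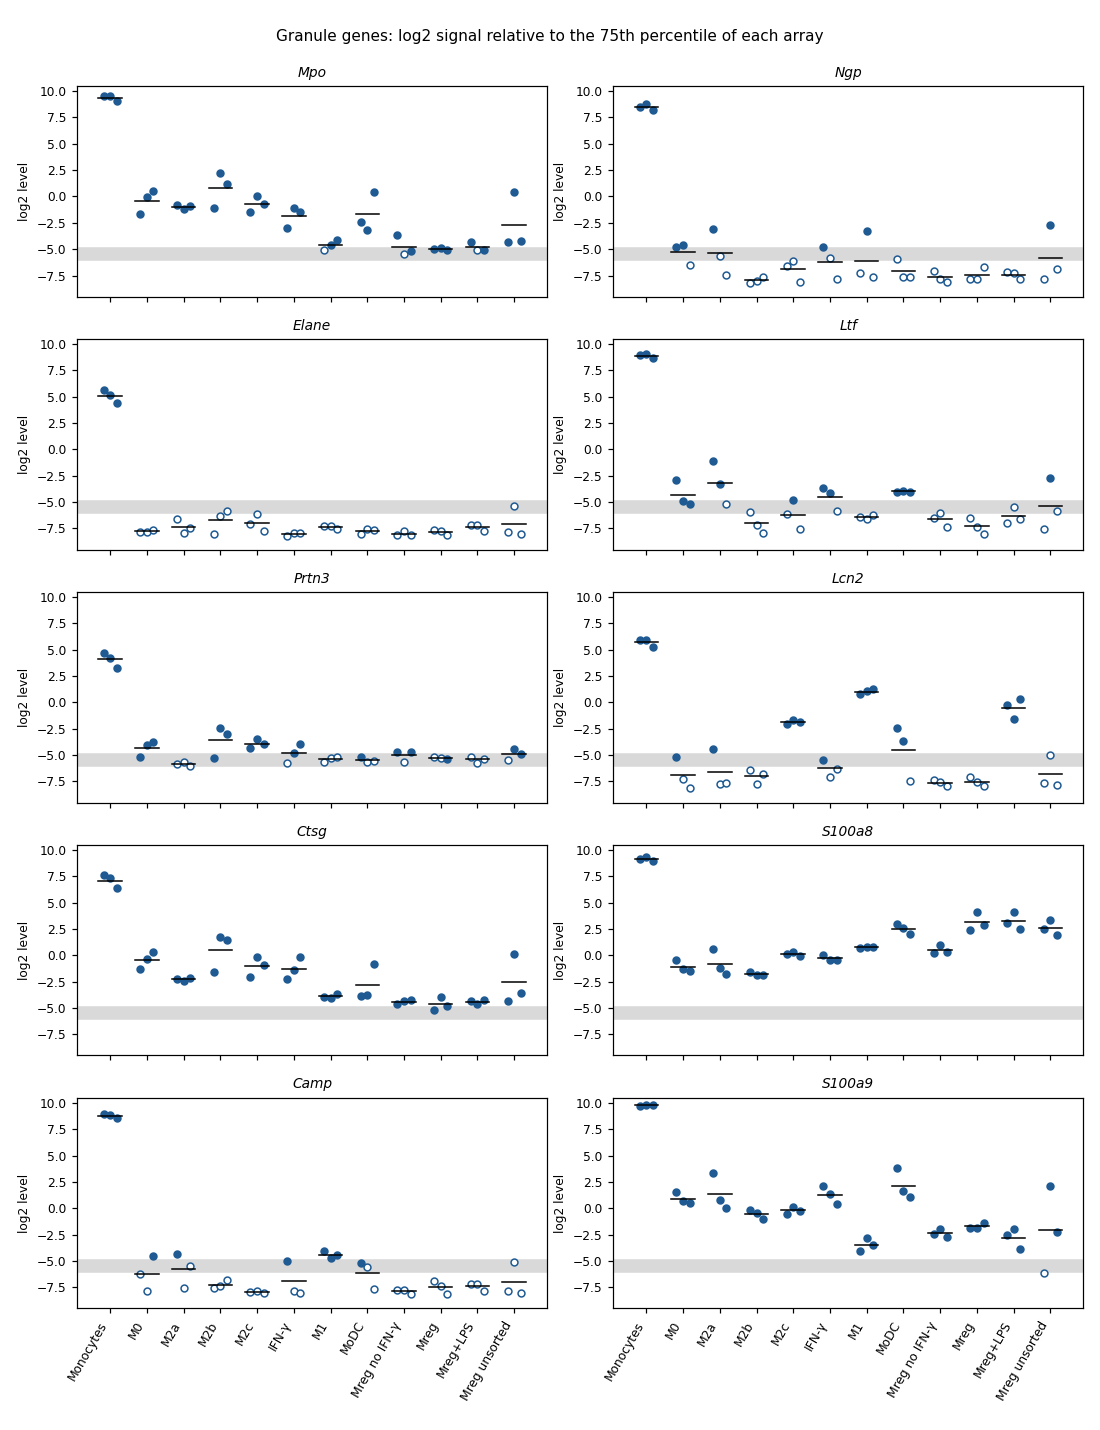
Log2 level of each member (y axis) on every array of the 12 groups (x axis); filled points were well above background, open points were not, lines are means of 3 arrays, and the grey band is the range of the lowest levels called well above background. Monocyte arrays lie above all others in every panel, Elane is open in all 11 cultured groups, and S100a8 and Ctsg are filled in all of them.

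Among the primary granule genes, the 3 monocyte arrays read 9.57, 9.51 and 9.03 for Mpo, which encodes the peroxidase that makes hypochlorous acid. Ctsg, the protease cathepsin G, read 7.64, 7.30 and 6.35. Elane, neutrophil elastase, read 5.63, 5.12 and 4.42, and Prtn3, proteinase 3, read 4.70, 4.24 and 3.28. Replicate 3 was the lowest array for all 4 genes. Camp, Ngp and Ltf spanned less between arrays. Camp, the cathelicidin precursor, read 8.95, 8.88 and 8.58, and Ltf, the iron-binding lactoferrin, read 8.99, 9.06 and 8.66. Ngp, a cathelin-related granule protein, read 8.45, 8.73 and 8.25. Lcn2, which binds bacterial siderophores, read 5.96, 5.88 and 5.25. The calprotectin subunits read 9.18, 9.35 and 8.98 (S100a8) and 9.68, 9.84 and 9.80 (S100a9).

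In M0 macrophages, kept on M-CSF without stimulus, all 10 members were lower than in monocytes, where 33.3% of all genes were called lower and 30.0% higher. For Elane the filter fixed this direction, here and in the other comparisons with monocytes. The median difference was −11.40 log2 units over the members and −0.08 over all genes. Camp fell by 15.02 ± 0.83 SE (adjusted p = 1.0e-14), with 1 of 3 M0 arrays above background. Ngp was 14174-fold lower (2 of 3 M0 arrays above background) and Ltf 9613-fold lower (all 3 above), while Lcn2 fell by 12.55 ± 0.95 SE on the log2 scale with 1 of 3 above. For Camp and Lcn2 the size rests on M0 readings mostly below background, and Lcn2 together with S100a8 sets the median above. Elane was at least 1766-fold lower, a bound set by the background because no M0 array read it. The other primary granule genes kept a measurable level: Mpo was 868-fold lower, Prtn3 337-fold and Ctsg 185-fold (adjusted p = 3.7e-08). S100a8 was 1216-fold and S100a9 460-fold lower.

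The same 10 were lower in Mreg no IFN-γ (33.1% of all genes lower; median −13.19 over the members, 0.01 over all genes) and in Mo-DC (34.9% lower; median −10.64 against −0.03). The median in Mreg no IFN-γ lies between Elane (−13.04) and Lcn2 (−13.33). Neither was above background on any Mreg no IFN-γ array, so the size of that median is not dependable. These 3 comparisons share the monocyte arrays, so they are not independent of each other. In Mreg no IFN-γ the bounds were at least 23977-fold for Camp, 25676-fold for Ltf, 19134-fold for Ngp, 2781-fold for Lcn2 and 1784-fold for Elane, none of which was above background on any Mreg no IFN-γ array, except that the other Ltf probe was on 1. S100a8 had the smallest difference there, 400-fold. In Mo-DC, S100a8 was 99.7-fold and S100a9 197-fold lower, and Ltf, above background on all 3 arrays, 7613-fold. M0 shared slides with the monocytes; Mreg no IFN-γ and Mo-DC did not.

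Other genes of the granulocyte lineage are read against the 33.3% of all genes lower and 30.0% higher in M0. For listed genes above background only in monocytes, the filter fixed the lower direction, as it did for Elane. How many those were is not given here. Of 25 measured genes for other granule proteins, 14 were lower and 5 higher in M0 (median −2.53), while their summed linear level (in units of the array's 75th percentile) overlapped, at 2340 to 2691 in monocytes and 2340 to 2439 in M0. Such sums, here and below, add signals of different probes. The brightest probes of a list weigh most in them, so they are not read as amounts of cells. Fcnb, a ficolin of granules, was at least 4117-fold lower, Pglyrp1, a peptidoglycan-binding granule protein, at least 2246-fold, and the neutrophil surface protein Cd177 at least 2219-fold. Of 16 markers of mature neutrophils 13 were lower and 1 higher (median −4.90), among them Wfdc21 (at least 2577-fold), the resistin-like Retnlg (at least 701-fold) and the histidine decarboxylase gene Hdc (log2 −9.69, adjusted p = 1.2e-17). Of 14 transcription and growth factor genes of granulocytes 10 were lower and 1 higher, led by the repressor Gfi1 (at least 239-fold) and by Klf5 (at least 125-fold), and the progenitor factor Myb fell by 7.25 on the log2 scale. Of 11 inhibitors of granule proteases 8 were lower and 2 higher; Serpinb1a, an inhibitor of elastase, fell by 7.56 and Slpi, an inhibitor of elastase and cathepsin G, by 6.48. Of 8 receptors for granule and S100 proteins 5 were higher and 2 lower in M0: the scavenger receptor Cd36 rose by 8.58 and Tlr4, the LPS receptor, by 3.19, and Cd69 fell by 4.54.

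Markers of other lineages stood in these monocyte arrays as well. All 16 measured mature neutrophil markers were above background on all 3 monocyte arrays. So were all 13 measured markers of eosinophils, basophils and mast cells and all 10 of T and NK cells. The same held for all 10 of erythroid cells and megakaryocytes, all 9 of myeloid progenitors and 6 of 7 of B and plasma cells. These counts leave out listed genes that failed the filter, which 3 monocyte arrays alone could satisfy. Among those were Cd79a, Pax5, Ebf1 and Blk (B cells), Ncr1 (NK cells), Hoxa9 (progenitors) and Cxcr1 (neutrophils). The summed level of the neutrophil markers ran from 157 to 194 in monocytes and from 70.1 to 74.9 in M0. In M1 it was higher than in monocytes, at 253 to 286, so this sum is not read here as an amount of neutrophils. For eosinophil, basophil and mast cell markers the sum ran from 220.1 to 408 in monocytes against 2.92 to 3.88 in M0, and for T and NK cell markers from 27.0 to 49.0 against 0.316 to 0.350. Progenitor marker sums overlapped (28.2 to 44.5 against 30.4 to 37.9), and those of erythroid cells and megakaryocytes were lower in monocytes (44.9 to 79.3) than in M0 (96.4 to 121). The count above background ran the other way for the latter list: all 10 on all 3 monocyte arrays, and 5 of 10 on all 3 M0 arrays. Of the 13 eosinophil, basophil and mast cell markers 12 were lower in M0, with Epx, eosinophil peroxidase, at least 868-fold lower and Prg2, the eosinophil major basic protein, down by 11.42 on the log2 scale. Only 4 of the 13 were above background on all 3 M0 arrays. In this and the other marker lists, the filter fixed the direction of any gene read only in monocytes. Of the T and NK cell markers 8 of 10 were lower, Nkg7 at least 1866-fold. The part of such cells in the levels of the 10 members was not tested. The 11 Ly6C-high monocyte markers were all lower in M0 and 11 of 12 macrophage markers were higher.

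**Figure D3:**
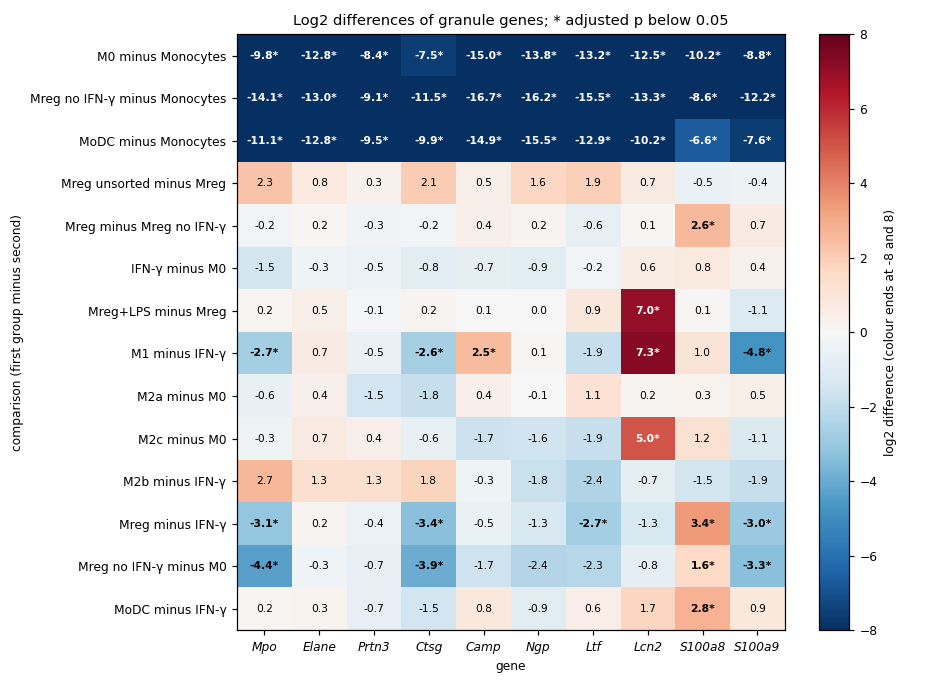
Log2 difference of each member (columns) in each comparison (rows, first group minus second), as colour and number; a star marks an adjusted p below 0.05 (limma, 3 arrays per group, Benjamini-Hochberg over all genes). The 3 rows against monocytes are negative throughout, Lcn2 carries the calls with LPS in Mreg and with dexamethasone (M2c), and S100a8 and S100a9 differ in sign between the Mreg and M-CSF cultures.

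After culture, Mpo and Ctsg were readable in M0, M2a, M2b, M2c and IFN-γ macrophages, and read lower in the sorted Mreg groups and in M1. Mpo read −1.63, −0.09 and 0.54 in M0 and −1.07, 2.25 and 1.21 in M2b. It read −1.50, 0.06 and −0.67 in M2c, −0.84, −1.23 and −0.91 in M2a and −3.02, −1.12 and −1.48 in IFN-γ macrophages. In Mreg it read −5.00, −4.91 and −5.06, and in Mreg no IFN-γ −3.64, −5.43 and −5.19, with 2 of those 3 arrays above background. Every array of M0, M2a, M2b, M2c and the IFN-γ macrophages thus lay above every Mreg and Mreg no IFN-γ array. Ctsg was above background on all 36 arrays: −1.33, −0.31 and 0.32 in M0, −1.58, 1.72 and 1.48 in M2b, −5.15, −3.96 and −4.78 in Mreg, and −4.58, −4.31 and −4.27 in Mreg no IFN-γ. Neighbours in the order of levels overlapped for both genes below the monocytes, apart from M1 and Mreg no IFN-γ for Ctsg. Over the 11 cultured groups the group means of Mpo and Ctsg had a Pearson correlation of 0.95, a description over groups that share arrays and slides between genes.

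Compared without stimulus, Mreg no IFN-γ against M0, 4 members were called, 3 lower and 1 higher, where 17.7% of all genes were called higher and 13.3% lower. Mpo fell by 4.36 ± 0.97 SE, 20.5-fold (adjusted p = 0.00096, 2 of 3 Mreg no IFN-γ arrays above background), and Ctsg by 3.95 ± 0.90 SE, 15.4-fold (adjusted p = 0.0012). S100a9 fell by 3.31 ± 1.13 SE (adjusted p = 0.027) and S100a8 rose by 1.60 ± 0.47 SE, 3.04-fold (adjusted p = 0.011). The arrays of both groups did not overlap for 6 of the 10 members, these 4 among them, and the share over all genes was not counted. The others were Ltf and Ngp, which by the probe used were above background on no Mreg no IFN-γ array. Ngp was above it on 2 of 3 M0 arrays, so its non-overlap rests partly on readings without a dependable order. The call of S100a9 was lost without any 1 of M0 replicates 1 and 2 and Mreg no IFN-γ replicates 1 and 3 (adjusted p up to 0.090), and that of S100a8 under normexp background correction (0.058) and without M0 replicate 3 or Mreg no IFN-γ replicate 2 (0.058 and 0.064). Ltf was at least 2.67-fold lower with an adjusted p of 0.069. The 2 groups lay on different slides.

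With IFN-γ in both cultures, Mreg against IFN-γ macrophages, 5 members were called, 4 lower and 1 higher (27.6% of all genes called, 14.6% higher). Ctsg was 10.3-fold lower (log2 −3.37 ± 0.90 SE, adjusted p = 0.0055) and Mpo 8.66-fold lower (adjusted p = 0.016). S100a9 was 7.99-fold lower (adjusted p = 0.0496) and Ltf at least 2.08-fold lower (adjusted p = 0.033). S100a8 was 10.7-fold higher (log2 3.42 ± 0.47 SE, adjusted p = 4.0e-06). Only the S100a8 call held in every alternative tried. That of Ctsg was lost under normexp background correction (adjusted p = 0.060), that of Mpo under normexp or without IFN-γ replicate 2 or 3, and those of S100a9 and Ltf under several settings each, among them the arrays of a single scan day (adjusted p = 0.081 and 0.073).

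IFN-γ in the M-CSF culture called 0 of 10 members (22.1% of all genes), and 0 had an unadjusted p below 0.05. The 95% interval of the Mpo difference ran from −3.46 to 0.51 log2 units. In M1, which adds LPS, Mpo fell 6.67-fold (log2 −2.74 ± 0.97 SE, adjusted p = 0.020) and Ctsg 6.23-fold (log2 −2.64 ± 0.90 SE, adjusted p = 0.016) against IFN-γ macrophages. Mpo read −5.07, −4.61 and −4.16 in M1, below all 3 IFN-γ arrays, and Ctsg −3.96, −4.08 and −3.66. Both calls were lost under normexp correction (adjusted p = 0.20 and 0.096) and without IFN-γ replicate 3 (0.059 and 0.086), and that of Mpo also without IFN-γ replicate 2 or M1 replicate 1. In Mreg, where both genes were near background, LPS gave 0.16 ± 0.97 SE for Mpo and 0.24 ± 0.90 SE for Ctsg. The difference between the LPS responses of both cultures was 2.88 ± 1.27 SE for Ctsg (adjusted p = 0.081, and 0.048 with the series number as a replicate block) and 2.90 ± 1.37 SE for Mpo (adjusted p = 0.10).

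Prtn3 stood near background after culture. It was above background on all arrays of M0 (−5.19, −4.08 and −3.71), M2b (−5.26, −2.38 and −2.99) and M2c (−4.35, −3.45 and −3.93), and on none of M1, M2a or Mreg + LPS. With IL-4 (M2a against M0, 12.3% of all genes called) 0 of 10 members passed and 1 had an unadjusted p below 0.05: Prtn3, at least 2.26-fold lower, with an adjusted p of 0.053. That p was 0.040 with the replicate block and 0.024 with the slide as a random block, and Prtn3 was then the 1 member called. Immunoglobulin-coated dishes (M2b against IFN-γ macrophages, 3.88% of all genes called) also gave 0 calls, with 5 members at an unadjusted p below 0.05, a share not counted over all genes. Mpo was 2.67 ± 0.97 SE log2 units higher there (adjusted p = 0.14), its arrays not overlapping, and Prtn3 1.27 ± 0.52 SE higher (0.21). Replicate 1 of M2b read lower than the other 2 for Mpo, Ctsg, Prtn3 and Elane. Without it, Mpo (3.60, adjusted p = 0.046), Prtn3 (2.13, 0.0067) and Elane (1.97, 0.034) were called, although Elane was above background in neither group.

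Camp, Ngp and Ltf were at the edge of detection in the cultured groups: of the 33 cultured arrays Camp was above background on 7, Ngp on 6 and Ltf on 12. Camp was above background on all 3 arrays only in M1, where it read −4.04, −4.74 and −4.43, against −4.95, −7.84 and −7.99 in IFN-γ macrophages (1 of 3 above background). The difference was 2.53 ± 0.83 SE (adjusted p = 0.013). It rested on signal near background: under normexp it was 0.71 (adjusted p = 0.12), and without IFN-γ replicate 2 or 3 the adjusted p was 0.070 and 0.077. By its brighter probe, Ltf was above background on all arrays of Mo-DC (−4.00, −3.93 and −4.04) and M0 (−2.86, −4.92 and −5.21), on 2 of 3 in M2a (−1.11, −3.24 and −5.22) and IFN-γ macrophages, and on none of Mreg, Mreg no IFN-γ, Mreg + LPS, M1 or M2b; by the other probe it was on 2 of 3 in M0 and on 1 of 3 in Mreg no IFN-γ. The M2a replicates of Ltf spanned 4.11 log2 units. The other Ltf probe gave −13.59 against −13.23 for M0 minus monocytes, and both probes had the same sign in 13 of 14 comparisons, all but IFN-γ macrophages minus M0 (0.22 and −0.22). Ngp scattered within groups: in M1 it read −7.29, −3.31 and −7.65, with replicate 2 alone above background.

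Lcn2 rose with LPS in both cultures and with dexamethasone. No array of Mreg, Mreg no IFN-γ, unsorted Mreg or M2b read it above background. Mreg + LPS read −0.29, −1.57 and 0.36, at least 34.4-fold above Mreg (adjusted p = 4.7e-07), where 31.7% of all genes were called higher and 25.6% lower; it was the 1 member called. In M1 it read 0.76, 1.10 and 1.24, against −5.45, −7.07 and −6.27 in IFN-γ macrophages, a rise of 7.29 ± 0.95 SE on the log2 scale (adjusted p = 3.6e-07) whose size rests on 1 of 3 IFN-γ arrays above background. There 27.2% of all genes were called higher and 23.8% lower, and 5 of 10 members were called: Lcn2 and Camp higher, Mpo, Ctsg and S100a9 lower. The LPS responses of Lcn2 in both cultures differed by −0.27 ± 1.34 SE (adjusted p = 0.90). All genes together shifted by a median of 0.16 with LPS in Mreg and 0.11 in M1, small beside these values. The level in M1 still lay below the lowest monocyte array.

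With dexamethasone, M2c read −2.04, −1.65 and −1.82 against −5.21, −7.27 and −8.08 in M0, where 1 of 3 arrays was above background. The log2 difference was 5.02 ± 0.95 SE (adjusted p = 0.00034), and its size is not dependable because most M0 readings were below background. It was the 1 member called, where 20.4% of all genes were (10.4% higher), and under normexp the log2 difference was 0.99 with an adjusted p of 0.074. M1, Mreg + LPS and M2c did not overlap each other, and each stood above all arrays of M0, IFN-γ macrophages, M2a, M2b and the Mreg groups without LPS. In Mo-DC Lcn2 read −2.46, −3.64 and −7.46, so that replicate 3 stood apart below background. Against IFN-γ macrophages it was 1.74 ± 0.95 SE higher (adjusted p = 0.14), and 3.21 higher without that array (adjusted p = 0.0036).

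S100a8 and S100a9, whose proteins form 1 complex, were ordered differently across the cultures. S100a8 was highest in the 3 Mreg groups with IFN-γ and in Mo-DC. It read 2.40, 4.13 and 2.88 in Mreg, 3.05, 4.15 and 2.53 in Mreg + LPS, 2.54, 3.31 and 1.93 in unsorted Mreg and 3.00, 2.59 and 1.99 in Mo-DC. These 4 groups overlapped each other and lay above all arrays of the remaining cultures. Next came M1 (0.72, 0.78 and 0.76), Mreg no IFN-γ (0.26, 1.03 and 0.29) and M2c (0.16, 0.31 and −0.05), then IFN-γ macrophages (0.03, −0.42 and −0.45) and M0 (−0.43, −1.29 and −1.52). M2a scattered from 0.56 to −1.74. M2b was lowest at −1.54, −1.83 and −1.90, below every M0 array.

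S100a9 was highest in Mo-DC (3.80, 1.62 and 1.04), M2a (3.34, 0.76 and 0.07), IFN-γ macrophages (2.16, 1.33 and 0.39) and M0 (1.59, 0.71 and 0.49), groups that overlapped. Mreg read −1.86, −1.88 and −1.37, Mreg no IFN-γ −2.41, −1.98 and −2.75, and Mreg + LPS −2.52, −1.95 and −3.90, all below every array of Mo-DC, IFN-γ macrophages, M0, M2a, M2b and M2c. M1 was lowest on average (−4.09, −2.77 and −3.52). Over the 11 cultured groups the means of S100a8 and S100a9 had a Pearson correlation of −0.40, given as a description. Mo-DC was the 1 group among the 4 highest cultured groups for both genes.

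**Figure D4:**
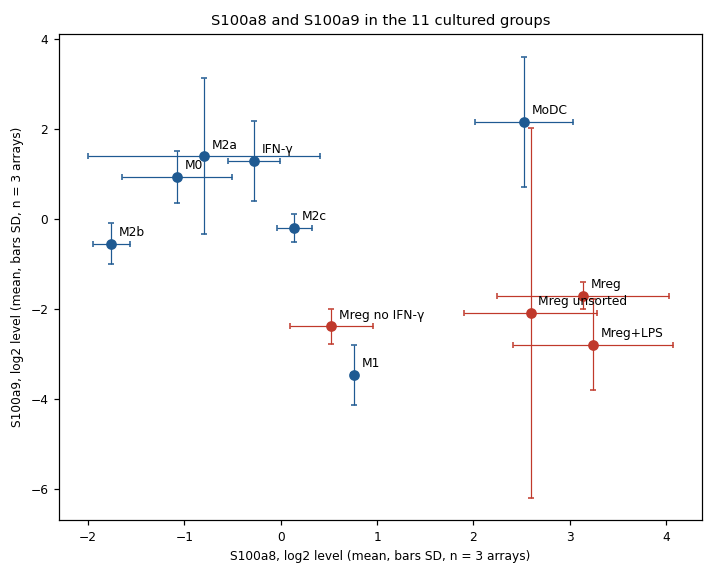
Mean log2 level of S100a8 (x axis) against S100a9 (y axis) in the 11 cultured groups, with SD bars of 3 arrays; Mreg cultures are red, the others blue. Mreg groups with IFN-γ lie to the right and below, M0, M2a and IFN-γ macrophages to the left and above, and the tall bar of unsorted Mreg spans its S100a9 readings from −6.12 to 2.10.

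IFN-γ raised S100a8 in the Mreg culture 6.12-fold (log2 2.61 ± 0.47 SE, adjusted p = 0.00018), the 1 member called where 20.3% of all genes were (9.48% higher). The difference was 2.14, 3.10 and 2.59 on the 3 slides that carried both groups. In the M-CSF culture IFN-γ gave 0.80 ± 0.47 SE (adjusted p = 0.27; 95% interval −0.17 to 1.78), and the difference between both responses was 1.81 ± 0.67 SE with an adjusted p of 0.22, so the responses were not shown to differ; 0 of 10 members were called in that contrast (1.63% of all genes), and 1, S100a8, had an unadjusted p below 0.05. Adding LPS to Mreg left a difference of 0.10 with a 95% interval from −0.87 to 1.08. M1 against IFN-γ macrophages gave 1.03 (adjusted p = 0.071, and 0.038 with the replicate block). M2c against M0 gave 1.22 (0.072, and 0.034 with the block), and M2b against IFN-γ macrophages −1.48 (0.082, and 0.034 with the block). With the block, 6 members were called in M1, 2 in M2c and 1 in M2b, and over all 17645 genes 9718, 4335 and 1100. Mo-DC carried 7.00-fold more S100a8 than IFN-γ macrophages (log2 2.81 ± 0.47 SE, adjusted p = 2.0e-05; 22.2% of all genes called higher, 25.4% lower). It was the 1 member called there, and without Mo-DC replicate 3 Lcn2 and Ctsg were called too.

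S100a9 was called in fewer places. M1 held 27.1-fold less than IFN-γ macrophages (log2 −4.76 ± 1.13 SE, adjusted p = 0.00093), with differences of −6.26, −4.11 and −3.91 between arrays of the same series number. With LPS in Mreg it read 1.09 ± 1.13 SE lower (adjusted p = 0.43), with arrays that did not overlap, and the difference of both LPS responses was 3.67 ± 1.60 SE (adjusted p = 0.078). None of the 10 members was called in that contrast of LPS responses, where 34.9% of all genes were. At an unadjusted p below 0.05 there were 5, a share not counted over all genes. With only the 4 groups of that contrast in the fit, Mpo, Ctsg, Ltf and S100a9 were called, as were 5430 of 17645 genes.

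The gene lists around the members share some genes, such as Slpi among the granule proteins and the inhibitors. With LPS in Mreg (31.7% of all genes higher, 25.6% lower), 5 of 11 protease inhibitors rose and none fell, 5 of 25 other granule proteins rose and 2 fell, and 5 of 16 neutrophil markers rose and 2 fell. Slpi rose by 5.16 on the log2 scale and Cst7, the cystatin that restrains cathepsins in leukocytes, by 7.37. In M1 (27.2% of all genes higher, 23.8% lower) 6 of 11 inhibitors rose and 1 fell, 7 of 25 other granule proteins rose and 3 fell, and 7 of 16 neutrophil markers rose and 2 fell; Slpi rose by 5.14, Cst7 by 6.29 and the formyl peptide receptor gene Fpr1 by 5.67. Between Mreg no IFN-γ and M0 (17.7% higher, 13.3% lower), 6 of 25 other granule proteins were higher and 3 lower, and 3 of 16 neutrophil markers were lower and none higher. Mmp9, the gelatinase of tertiary granules, rose by 2.59, while Ms4a3, a marker of the granulocyte-monocyte progenitor, was at least 2.44-fold lower (2 of 3 M0 arrays above background) and Myb at least 3.40-fold lower. In Mo-DC against IFN-γ macrophages (22.2% of all genes higher, 25.4% lower) 17 of 25 other granule proteins were higher and 3 lower, and 9 of 16 neutrophil markers were higher and 2 lower. The chitinase-like Chil3 rose by 7.81, the leukotriene B4 receptor gene Ltb4r1 by 4.93 and Gfi1 by 6.31 (1 of 3 IFN-γ arrays above background). Wfdc21 was at least 236-fold and the chemokine receptor gene Cxcr2 at least 15.6-fold higher. The receptor for G-CSF, Csf3r, fell by 4.21. The summed neutrophil markers in Mo-DC ran from 149 to 235, against 74.0 to 92.5 in IFN-γ macrophages, and 9 of 10 T and NK cell markers and 6 of 10 dendritic cell markers were higher there, the former summing to between 0.711 and 2.18 against 0.227 to 0.289. Their part in the members' levels in Mo-DC was not tested.

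Unsorted Mreg were compared with sorted Mreg on 3 slides that carried both. None of the 10 members was called, where 11.8% of all genes were (2088 genes, 6.48% of all higher), and 2 had an unadjusted p below 0.05: Mpo, 2.28 ± 0.97 SE log2 units higher (adjusted p = 0.12), and Ctsg, 2.05 ± 0.90 SE higher (0.14). The number of genes called depended on the fit: it was 0 with only the compared groups fitted and 852 under normexp. The median over the members was 0.73, against 0.10 over all genes. It lies between Lcn2 (0.69) and Elane (0.77), neither above background on any of these 6 arrays, so its size is not dependable. Mpo was the 1 member whose arrays did not overlap, a share not counted over all genes: −4.33, 0.42 and −4.21 unsorted against −5.00, −4.91 and −5.06 sorted. Elane, Camp and Lcn2 were above background on none of these 6 arrays, and Ngp and Ltf on 1.

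Replicate 2 of unsorted Mreg stood apart in these genes. It was the highest of its group for 10 of 10 members, as it was for 49.0% of all genes, and it exceeded the mean of the other 2 arrays by a median of 3.41 log2 units over the members and 0.13 over all genes. Elane, Camp and Lcn2 were above background on none of the 3 unsorted arrays, so their order is not dependable. Camp (2.81) and Ltf (4.01) set the median of 3.41. S100a9 read −6.12, 2.10 and −2.24 across replicates 1 to 3, Ctsg −4.30, 0.17 and −3.60, Ltf −7.52, −2.69 and −5.89, and Ngp −7.87, −2.75 and −6.87. Replicate 2 was thus the only unsorted array on which Ngp and Ltf were above background, and replicate 1 the only array of all 36 on which S100a9 was not. For S100a8 it exceeded the mean of the others by 1.08, at 2.54, 3.31 and 1.93. M2c replicate 2 was also the highest of its group for 10 of 10 members, as it was for 33.03% of genes. Elane, Camp and Ngp were above background on no M2c array, so their order is not dependable either. Leaving out unsorted replicate 1, Ctsg (2.92, adjusted p = 0.043) and Ltf (2.98, adjusted p = 0.044) were called. Without unsorted replicate 2 or 3, none was.

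**Figure D5:**
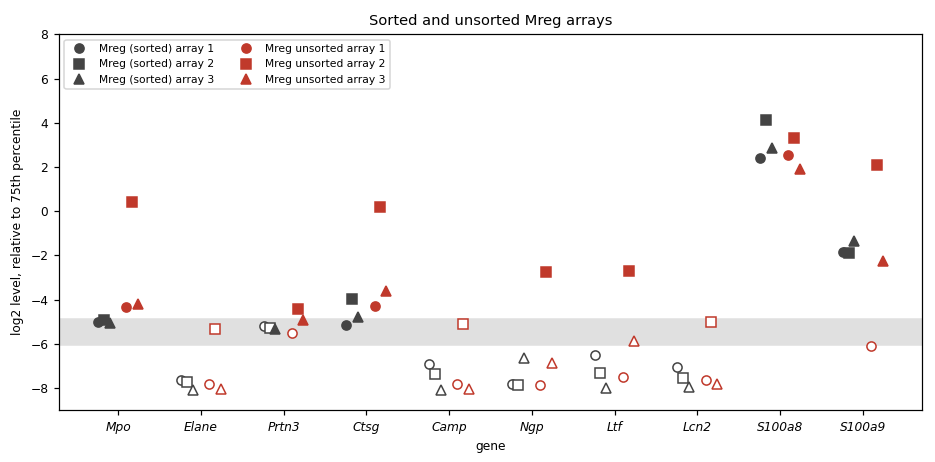
Log2 level of each member on the 3 sorted (grey) and 3 unsorted (red) Mreg arrays; marker shape gives the replicate, open markers were not well above background, and the grey band is the range of the lowest levels called well above background. The red square, replicate 2 of the unsorted cultures, is the highest unsorted array for every gene.

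Marker genes of other cells were called in the same comparison, none of them with only the compared groups fitted, where no gene was. Of the 16 mature neutrophil markers 4 were higher in unsorted Mreg and none lower; Stfa2, a stefin, was at least 1.38-fold higher, Hdc at least 2.70-fold and Stfa2l1 3.17 log2 units higher with 1 of 3 sorted arrays above background. Of the other granule proteins 1 of 25 was higher, the neutrophil collagenase Mmp8 (log2 3.66, adjusted p = 0.00027). The summed neutrophil marker level was 31.2, 45.4 and 20.4 on unsorted replicates 1 to 3 and ran from 13.8 to 25.4 in sorted Mreg. Erythroid and megakaryocyte markers summed to 166, 425 and 73.6, against 54.1 to 71.5 sorted, and eosinophil, basophil and mast cell markers to 1.60, 4.53 and 1.34, against 0.925 to 1.19. Replicate 2 had the highest sum in each of these 3 lists and also in the macrophage list (1860, against 1312 and 1440); in the Ly6C-high monocyte list it had the lowest (142, against 209 and 161). The number of neutrophil markers above background was 12, 9 and 9 of 16, highest on replicate 1. Their part in the readings of replicate 2 was not tested. The progenitor marker Cd34 was 4.23 log2 units higher in unsorted Mreg (adjusted p = 0.00053), with 2 of 3 sorted arrays above background. The summed progenitor markers went the other way, at 19.6, 17.3 and 14.3 on unsorted replicates 1 to 3 against 21.5 to 26.8 in sorted Mreg.

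Other genes followed the members across the 12 group means, a ranking that the monocyte level dominates. The profile of Mpo, Elane, Prtn3 and Ctsg was followed most closely by Kcnk12, the histone genes H2ac13 and H2ac15, Maz, Ctse, Lct, Serpinb10, Rbm48, P2rx1 and Snhg5 (Pearson r from 0.977 to 0.958 over 12 groups, among 13891 genes). Camp, Ngp and Ltf were followed by Mogat2 (r = 0.992), Hlf, Smim5, Serpinb10, Csrp3, the eosinophil granule gene Prg3, Krt18, Cd300lg, Lin28a and S1pr5. The 5 genes nearest to S100a8 and S100a9 were Rflnb, Chil1, Pglyrp1, Cyp2ab1 and Itgb2l (r from 0.972 to 0.964). Serpinb10 was on both of the former lists. More genes exceeded r = 0.95 for the secondary granule profile (112) than for the S100 profile (39) or the primary granule profile (16). Without the monocytes, over the 11 cultured groups, the pairs of Camp, Ngp and Ltf had r = 0.73 (Ngp and Ltf), 0.60 (Camp and Ngp) and 0.43 (Camp and Ltf). These values rest mostly on readings below background: Camp was above it on 7, Ngp on 6 and Ltf on 12 of the 33 cultured arrays.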

How the data were processed

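Mouse RNA was read on 36 single-colour arrays of 1 Agilent design, which filled 9 slides of 4 arrays and were scanned on 2 days. The deposited spot intensities were background-corrected and processed with Feature Extraction 10.5.1.1 (protocol GE1_105_Jan09), per the file headers, which also give build mm8. The authors' deposited series table holds log2 values and served as an alternative; it correlated at 0.997 or more with the processed intensities. Each array's 75th percentile of processed intensity (338 to 696) was subtracted on the log2 scale, spots flagged as uneven or outlying were left out, repeated spots were averaged, probes above background on fewer than 3 of 36 arrays were dropped, and the brightest probe stood for a gene. Of 41174 probes 24375 were named through their accession and 8072 kept the file's name. limma 3.58.1 (R 4.3.3) fitted 12 group means, with Benjamini-Hochberg adjustment within each comparison. The procedure was tested on simulated data. "At least" folds compare the brighter group's mean with, per dim array, the higher of its reading and its lowest level above background; their p-values test the unraised difference. Members and gene lists were chosen with earlier results of these data known, and all members are named. Of each list, up to 3 called genes with the largest change among those without overlap were named per comparison, and 10, 10 and 5 genes by likeness. Arrays with the same series number deviated together (every correlation over 0.1) in the comparisons of stimuli within a culture and not in those with monocytes, with unsorted Mreg or between cultures. Alternatives were blocks for the series number (fixed) and for the slide (random), the fit, filter, probe, normalization and background choices, a single scan day, and each array left out. The precision is limited by 3 arrays per group. Drawing used Python 3.11.15 with matplotlib 3.10.9.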

Additional observations from a re-analysis of the deposited data

How the results depend on the processing

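No called difference of a member changed direction under the alternatives run. Of 112 member differences that were not called, 51 had the other sign under at least 1 alternative; S100a9 in unsorted against sorted Mreg went from −0.38 to 1.63 without unsorted replicate 1, and Ngp in M1 against IFN-γ macrophages from 0.10 to −1.29 without M1 replicate 2. The count of called members moved as follows. Requiring 18 arrays above background left 5 members in the test, and 5 were called against monocytes in M0, Mreg no IFN-γ and Mo-DC, 3 in M1 against IFN-γ macrophages, 1 in M2a, 0 in M2c and 0 with LPS in Mreg; Lcn2 is among those left out by construction. Over the 14712 genes then tested the counts were 9985, 10515, 10544, 8455, 2203, 3543 and 9684 in that order. Normexp, which adds an offset of 50 to every signal, gave 2 calls in M1, 0 in M2c and 2 in Mreg against IFN-γ macrophages. Over all 17645 genes those were 6449, 2832 and 3307. Fitting only the compared groups gave 8 in M1, 2 in M2c, 1 in M2b and 4 in the contrast of LPS responses. Over all genes (17644 or 17645 tested) those were 9630, 4393, 446 and 5430. A single scan day gave 1 each in unsorted Mreg, M2a and M2b, 3 in Mreg against IFN-γ macrophages and 2 in Mo-DC against them. Over all 17645 genes those were 2062, 959, 339, 4176 and 7172. Quantile normalization and the authors' table each gave 1 in M2a and 1 in the LPS contrast (Camp). Over all 17645 genes they called 2347 and 2348 in M2a, and 6020 and 6011 in the LPS contrast. The replicate block gave 1 in M2a, 2 in M2c, 1 in M2b and 1 in the LPS contrast, and also called Ltf in Mreg no IFN-γ against M0 (adjusted p = 0.037), where the numbers do not pair the arrays; it changed no other count by over 1.5 times. Over all 17645 genes it called 2887 in M2a, 4335 in M2c, 1100 in M2b and 7012 in the LPS contrast. The slide as a random block gave 1 in M2a, 2 in M2c and 1 in M2b, and no filter gave 3 in Mreg against IFN-γ macrophages. Over all genes the slide block called 3196, 3620 and 1284 of 17645, and no filter 4310 of 27597. For causes other than those stated, the cause was not tested. Leaving out each array in turn gave 2 to 5 calls in M1, 2 to 4 in Mreg against IFN-γ macrophages, 3 to 4 in Mreg no IFN-γ against M0, 1 to 2 in M2c, 0 to 1 in M2a, 0 to 3 in M2b, 1 to 3 in Mo-DC against IFN-γ macrophages, 0 to 2 in unsorted Mreg and 0 to 1 in the LPS contrast; the counts against monocytes stayed at 10. With an array left out, the counts over all genes are not given here. Counts over all genes moved by over 1.5 times in some comparisons. In unsorted against sorted Mreg 2088 genes were called, and 0 with only the compared groups, 852 under normexp, 3342 with the replicate block and 3514 with the slide block. For IFN-γ in Mreg it was 3582, and 2357 with only the compared groups, 2306 under normexp and 1986 on 1 scan day. For M2b it was 684, and 294 under normexp, 339 on 1 scan day, 446 with only the compared groups, and 1100 and 1284 with the replicate and slide blocks. For M2a it was 2164 and 959 on 1 scan day, for Mreg no IFN-γ against M0 5481 and 3192 under normexp, and for M1 9004 and 13640 with no filter. For the contrast of IFN-γ responses it was 288, and 51 under normexp, 70 on 1 scan day, 191 with no filter, 455 with the replicate block and 552 with only the compared groups, and for that of LPS responses 6149 and 3981 under normexp. Levels of Elane, Camp, Ngp, Ltf and Lcn2 near background limit every comparison that rests on them.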
